A study of Caenorhabditis elegans with 2 samples.

Results

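The 72 genes that Ensembl names his- in the WBcel235 annotation of Caenorhabditis elegans, out of 46890 annotated genes, were examined for binding of SNPC-4, a subunit of SNAPc, the complex that activates genes of small nuclear RNAs (snRNAs) by binding their promoters. The data came from chromatin immunoprecipitation followed by sequencing (ChIP-seq) on whole L4 larvae, males and females pooled. All animals were of strain OP179, which is unc-119(ed3) III and carries the integrated transgene wgIs179 with eGFP-tagged snpc-4. The 2 biological replicates form 1 group, so no condition was compared, and no input or untagged sample was analysed here. A gene was counted when the summit of a peak lay within 300 bp of its annotated 5′ end, and the share over the 19973 protein-coding genes, which include the histone genes, served as background. For 65 of the 72 histone genes the annotated 5′ end is the start codon, so positions there are not distances from a known transcription start. The main list holds the 381 peaks kept by the authors after the irreproducible discovery rate (IDR) procedure, which judges how the ranks of peaks agree between replicates. Being in this list is not by itself evidence that a peak ranked alike in both replicates. The pooled list and the replicate 2 list hold 30000 peaks each, the replicate 1 list holds 11042 peaks, and the authors named these lists as peaks together with background. The files give no read counts, so the depth behind each peak is unknown, and the authors' signal values were compared only within a list.

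Histones package DNA into nucleosomes. Each nucleosome holds the core histones H2A, H2B, H3 and H4, and the linker histone H1 binds between nucleosomes. Core histone genes of the replication-dependent kind lie in tandem copies, often as divergent pairs that share the space between their 5′ ends, and are used when DNA is copied. The variant H3.3 is placed into chromatin outside DNA replication. By RefSeq product the 72 genes comprise 17 H2A genes, 16 H2B genes, 16 H4 genes, 15 H3 genes, 5 genes for H3.3 or H3.3-like proteins, 1 gene for H1 and 2 genes with no class assigned, his-39 and his-73. They fall into 41 clusters when 5′ ends within 1000 bp are chained. Many are near-identical copies: the 250 bases before the 5′ end form 51 distinct sequences, and 33 genes share theirs exactly with another gene.

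Stretches of the upstream sequence are shown for genes with and without a summit, because a run of bases recurs in both. They were read from the RefSeq WBcel235 genome, which is the ce11 build of the peak files, run 5′ to 3′ on the strand of the gene and stop before position -40 from the annotated 5′ end. Capitals mark GTGTCCC and TATAAA.
his-37: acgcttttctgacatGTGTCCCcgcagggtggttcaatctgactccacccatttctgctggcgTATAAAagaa
his-24: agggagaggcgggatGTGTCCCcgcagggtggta
his-61: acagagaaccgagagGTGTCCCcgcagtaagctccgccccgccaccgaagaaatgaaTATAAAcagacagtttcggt
his-4: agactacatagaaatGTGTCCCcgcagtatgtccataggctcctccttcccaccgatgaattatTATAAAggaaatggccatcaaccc
his-60: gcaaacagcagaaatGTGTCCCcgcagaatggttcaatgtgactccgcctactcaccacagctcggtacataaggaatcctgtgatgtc
his-10: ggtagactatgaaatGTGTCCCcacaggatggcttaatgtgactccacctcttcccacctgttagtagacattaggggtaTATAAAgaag
his-50: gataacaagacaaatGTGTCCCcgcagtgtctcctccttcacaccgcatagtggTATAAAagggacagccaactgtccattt
The stretches lie at chrV:9546992-9547064 (plus strand) for his-37, chrX:14490020-14490053 (plus strand) for his-24, chrIV:7486258-7486334 (minus strand) for his-61, chrV:16040556-16040643 (minus strand) for his-4, chrIV:7488033-7488121 (minus strand) for his-60, chrII:13823429-13823518 (minus strand) for his-10 and chrV:8847745-8847826 (minus strand) for his-50. The first 4 genes had a summit in the pooled list, and his-60, his-10 and his-50 had none. The 250 bases upstream of his-10 are identical at his-14 and his-26, and those of his-50 are identical at his-28.

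In the IDR list, 1 of the 72 histone genes had a summit within 300 bp (1.39%, exact binomial 95% interval 0.0352 to 7.5), against 0.661% of protein-coding genes. The interval counts genes only, and it contains the background. In the pooled list 15 histone genes had a summit (20.8%, 12.2 to 32), against 23.4% of protein-coding genes. Replicate 1 had a summit at 6 histone genes (8.33%) against a background of 10.6%, and replicate 2 at 12 (16.7%) against 22.5%. In these longer lists the share of histone genes was under the background. Within 300 bp this order turned in the pooled and replicate 2 lists when they were cut to the length of replicate 1. The replicate 1 list has that length uncut and was under the background. With the pooled list cut to its 11042 strongest peaks, as many as replicate 1 has, 12 histone genes had a summit (16.7%, 8.92 to 27.3), against 11.2% of protein-coding genes. With replicate 2 cut in the same way there were 8 (11.1%, 4.92 to 20.7), against 10.1%. The interval contains the background at either length of the pooled list and in the cut replicate 2 list. For comparison, 43 of 129 snRNA genes and 9 of 78 ribosomal protein genes had an IDR summit, and 74 and 36 of them had a pooled summit. Among the 381 strongest peaks of each replicate, replicate 1 reached 3 histone genes (4.17%, background 0.736%) and replicate 2 reached 1 (1.39%, background 0.576%).

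With a wider window the uncut longer lists again gave a lower share for histone genes. Within 1000 bp, the IDR list held 2 histone genes (2.78%, background 1.36%), the pooled list 24 (33.3%, background 50.7%), replicate 1 had 11 (15.3%, background 23.4%) and replicate 2 had 23 (31.9%, background 50.9%). Neighbouring genes share summits, so clusters were counted too. Of the 41 clusters, 1 had an IDR summit within 300 bp, 10 had a pooled summit (24.4%, 12.4 to 40.3), 4 had one in replicate 1 and 8 in replicate 2. Clusters of other genes were not counted, and a cluster can hold several 5′ ends, so the shares per gene are no background for these counts.

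The gene with the IDR peak was his-37, which encodes H4 and lies at chrV:9547105-9547607 on the plus strand. Its summit stood at chrV:9547025, 80 bp upstream of the 5′ end and within no annotated gene. The authors' signal was 32.85 in the IDR and pooled lists, which placed it at rank 181 of the pooled list, against a median of 31.66 over the IDR peaks. The last IDR peak had a signal of 21.35 and the next peak of the pooled list 21.33. Replicate 1 had a summit at position -98 with signal 12.28, rank 212, and replicate 2 had one at position -76 with signal 20.09, rank 194. The his-37 summit was thus among the strongest 381 of both replicates, and no other histone 5′ end lay within 300 bp of it.

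The H3 gene his-42 had the other IDR summit within 1000 bp. That summit lay 852 bp upstream, at chrII:13829549, with signal 112.6 and rank 65. It stood 58 bp upstream of the snRNA gene F08G2.10, a kind of gene that SNAPc is known to bind, so the count within 1000 bp includes a peak whose nearest 5′ end is not a histone gene.

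**Figure D1:**
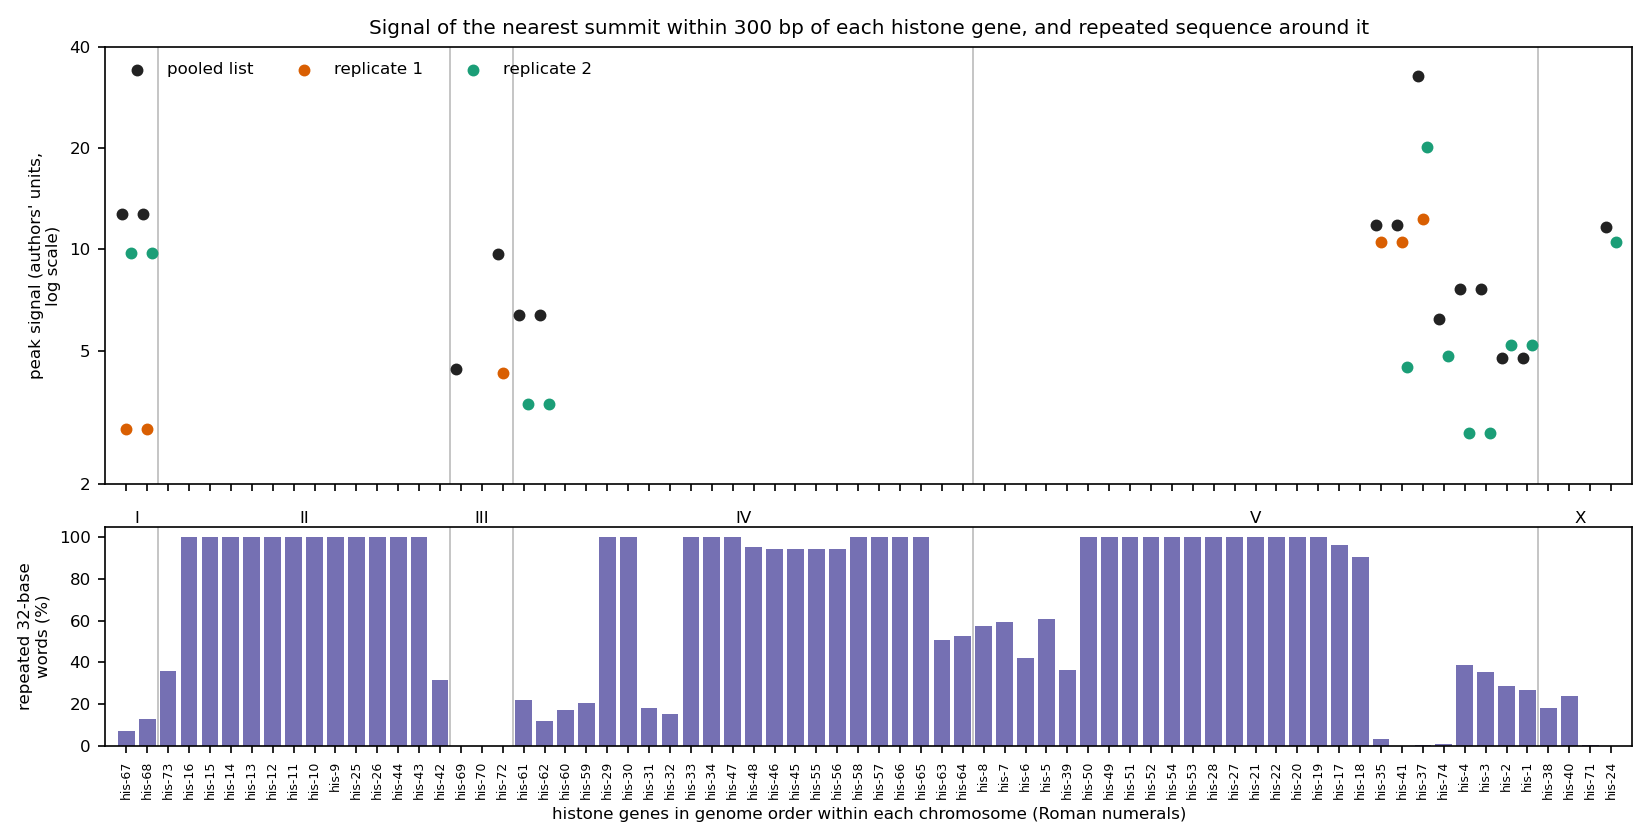
Upper panel, the authors' signal (log scale) of the nearest summit within 300 bp for each histone gene in the pooled list and each replicate, with genes in genome order along each chromosome; lower panel, the percentage of 32-base words in the 300 bp on either side of the 5′ end that occur more than once in the genome. The highest signal is that of his-37 at 32.85, and the genes without a point include the 45 genes with bars over 50%.

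Apart from his-37, no histone gene reached the IDR list within 300 bp, and the remaining pooled summits are given by histone class. The linker histone H1 gene, his-24 (chrX:14490094-14491119, plus strand), had a pooled signal of 11.68 at position -62, rank 1417. Replicate 2 had a summit there with signal 10.52 at position -79, and replicate 1 had none within 300 bp. The pooled and the replicate 2 summit lie over a non-coding RNA gene, M163.19, whose 5′ end is also within 300 bp.

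The divergent pair his-35, an H2A gene (chrV:9544659-9545288, minus strand), and his-41, an H2B gene (chrV:9545536-9546264, plus strand), shared a pooled summit with signal 11.84, rank 1381. It stood 2 bp inside his-41 and 250 bp upstream of his-35. In replicate 1 the shared summit had signal 10.52 and rank 290, and so lay among the 381 strongest peaks of that replicate. In replicate 2 the nearest summit lay 223 bp inside his-41 with signal 4.468, rank 10861, and none lay within 300 bp of his-35. The pair was therefore strong in replicate 1 and weak in replicate 2, where it was under the 381 strongest peaks.

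The pair his-67, an H4 gene, and his-68, an H2A gene, shared a pooled summit with signal 12.77, rank 1154, at position -142 of his-68 and -227 of his-67. The same summit had signal 2.927 and rank 5518 in replicate 1, and replicate 2 had signal 9.723 and rank 1022. Replicate 2 was the higher by rank, and both replicates had a summit between the genes.

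The pairs his-4 (H2B) and his-3 (H2A), his-61 (H2A) and his-62 (H2B), and his-2 (H3) and his-1 (H4) had lower pooled signals of 7.619, 6.37 and 4.739. Their replicate 2 signals were 2.832, 3.47 and 5.186, and replicate 1 had no summit within 300 bp at any of these 6 genes. The summit between his-4 and his-3 lies over the non-coding RNA gene T10C6.19, whose 5′ end is also within 300 bp. A further pooled summit with signal 4.017 lay 295 bp inside his-61. Among the H3.3 genes, his-72 had a pooled signal of 9.702 and a replicate 1 signal of 4.292, his-74 had a pooled signal of 6.224 and a replicate 2 signal of 4.827, and his-69 had a pooled signal of 4.408 and a summit in neither replicate. The his-69 summit and the his-2 summit lay below the median signal of the pooled list, 4.923.

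Genes just inside the 300 bp window were his-35 at position -250 and his-67 at -227. Just outside were the H3.3 gene his-70 at 523 bp and the H2A gene his-7 at 623 bp. No histone gene had its nearest pooled summit between 250 and 523 bp.

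By class, the pooled list reached 1 of 1 H1 gene, 3 of 5 H3.3 genes, 4 of 17 H2A genes, 3 of 16 H2B genes, 3 of 16 H4 genes and 1 of 15 H3 genes, beside the background of 23.4% of protein-coding genes. The classes differed in how many genes had over 50% repeated sequence around the 5′ end (words of 32 bases that occur more than once in the genome), where no histone gene had a summit: 0 of 1 H1 gene, 0 of 5 H3.3 genes, 13 of 17 H2A genes, 13 of 16 H2B genes, 10 of 16 H4 genes and 9 of 15 H3 genes. Among genes at most 50% repeated, all H2A and H2B genes had a pooled summit. Of the H4 genes there, his-1, his-37 and his-67 had a pooled summit and his-31, his-38 and his-60 did not. Of the H3 genes there, his-2 did, and his-6, his-32, his-40, his-42 and his-59 did not. The part of repeated sequence in the class counts was not tested. Of the 8 genes with an intron 6 had a pooled summit, against 9 of the 64 genes without one. The same genes differ in repeated sequence, whose median share around the 5′ end was 0.175% for genes with an intron and 98.2% for those without, and the part of either in the difference was not tested.

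Replicates did not reach the same genes throughout. Both had a summit within 300 bp at 4 genes (5.56%), his-37, his-41, his-67 and his-68, against 4.66% of protein-coding genes. Replicate 1 alone had one at 2 genes (2.78%, background 5.97%), his-35 and his-72. Replicate 2 alone had one at 8 genes (11.1%, background 17.9%), his-1, his-2, his-3, his-4, his-24, his-61, his-62 and his-74. The remaining 58 had none in either replicate.

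**Figure D2:**
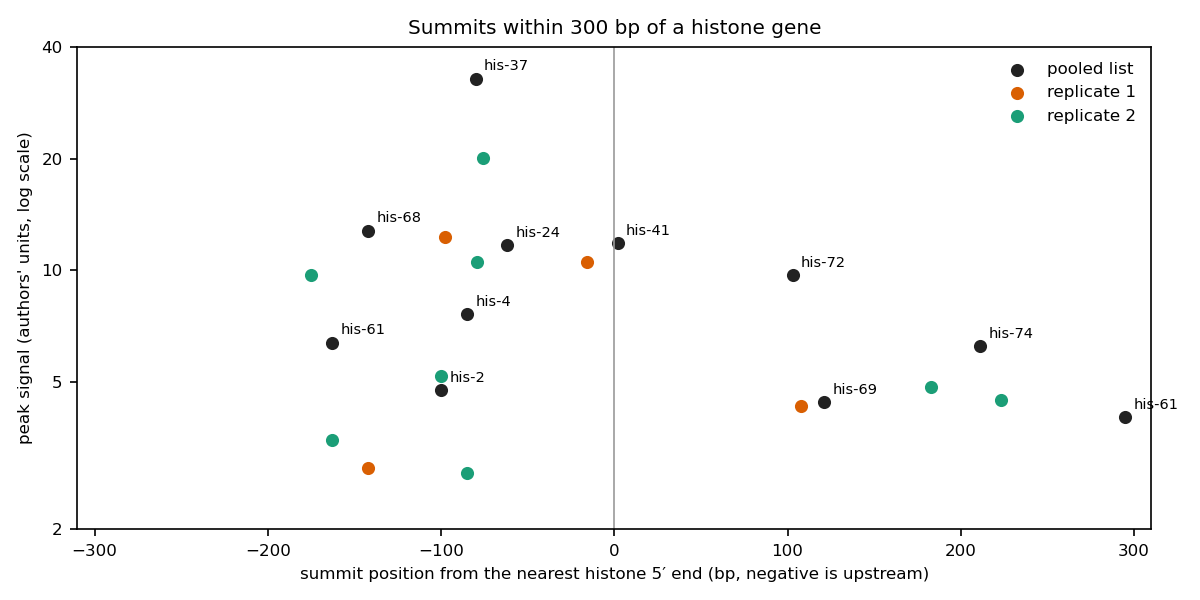
Position of each distinct summit within 300 bp of a histone gene, measured from the nearest histone 5′ end in bp with negative values upstream, against the authors' signal on a log scale. In the pooled list 6 of 11 summits are upstream, the strongest being that of his-37 at -80, and 5 are downstream.

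The 11 distinct pooled summits had a median position of -62 and a median rank of 4845, at 16.1% of the list counted from the strongest. The 4634 pooled summits at protein-coding genes had a median position of -16 and stood at a median of 42.2% of the list. Of the 15 histone genes with a pooled summit, 10 have the start codon as annotated 5′ end. The like share of protein-coding genes was not counted, so these median positions cannot be compared as distances from transcription starts. The histone summits ranged from rank 181 to rank 22020. The authors' −log10 q-value (higher is stronger) was 3.16 at his-37, 2.89 at his-68, 2.61 at his-24, 2.6 at his-41 and 1.83 at his-72. It was 1.2 at his-4, 0.862 and 0.301 at the his-61 summits, 0.813 at his-74, 0.441 at his-2 and 0.373 at his-69. In replicate 1 the 4 histone summits had a median rank of 1240, and in replicate 2 the 8 had a median rank of 8292.

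Among the 72 genes, the ones with no summit were largely those in repeated sequence. The share of 32-base words in the 300 bp on either side of the 5′ end that occur more than once in the genome was over 50% for 45 histone genes, and this split was chosen after the genes with and without summits had been listed. None of those 45 had a summit within 300 bp in any of the 4 lists. The exact binomial upper limit is 7.87%, but it counts the genes as independent, although many are near-identical copies. It also takes each lack of a summit as measured, so it sets no ceiling on the share of these genes that is bound. Protein-coding genes over 50% were seldom reached either, at 4 of 617 (0.648%) in the pooled list. Among genes over 90% repeated, 0 of 40 histone genes and 0 of 256 other protein-coding genes had a pooled summit. Neither the read length nor the treatment of reads with several matches is stated in the files or labels, and in such sequence a lack of reads placed there and a lack of binding cannot be told apart.

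The 27 histone genes with at most 50% repeated sequence had a pooled summit in 15 cases (55.6%, 35.3 to 74.5), against 24.2% of protein-coding genes under the same limit. Divergent pairs among these genes share a summit, but the interval counts the genes as independent and so is too narrow. Replicate 1 had 6 of 27 (22.2%) against 11%, replicate 2 had 12 of 27 (44.4%) against 23.2%, and the IDR list had 1 of 27 (3.7%) against 0.682%. The split was made with the values in view, so these shares are a description and carry no test. They count every summit alike, also those of low −log10 q-value such as 0.441 at his-2 and 0.373 at his-69. By cluster, 10 of 19 had a pooled summit, with no background counted for clusters. The shares moved with the limit: at most 10% repeated left 8 of 10 genes with a summit, and at most 90% left 15 of 32. Of protein-coding genes under 10% repeated, 24.9% had a pooled summit. With 24-base words the count was 15 of 26, and with 50-base words 15 of 31. No background share was set beside the counts at 90% or with these word lengths.

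**Figure D3:**
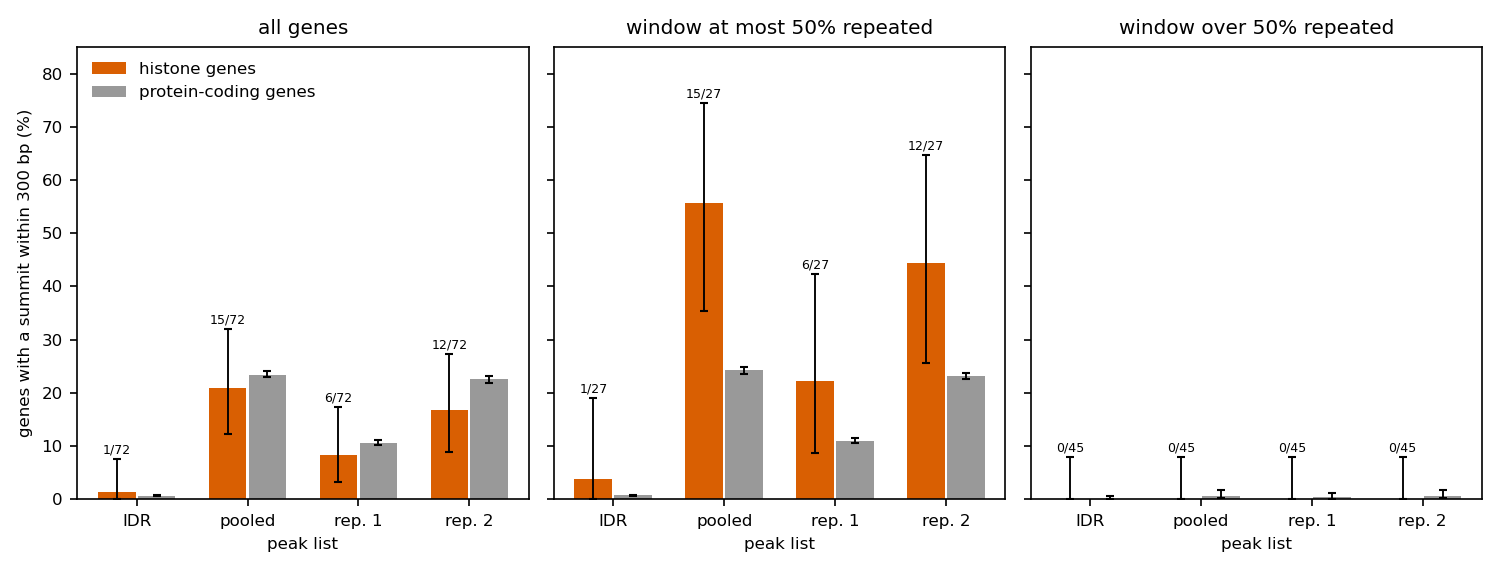
Percentage of genes with a summit within 300 bp in the 4 lists, for histone genes (left bar of each pair, with counts) and protein-coding genes (right bar), over all genes and split at 50% repeated sequence; error bars are exact binomial 95% intervals. Histone genes are at 15 of 72 in the pooled list over all genes, at 15 of 27 where at most 50% is repeated and at 0 of 45 above that.

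The genes without a summit include whole arrays. The chromosome II array of 13 genes spans 10.9 kb and had 0 summits at its 5′ ends in each list. It lies in a stretch of 13.1 kb with no pooled summit, of which 79.5% is repeated. Its members include the H3 genes his-9 and his-13, the H4 genes his-10 and his-14, the H2B genes his-11 and his-15 and the H2A genes his-12 and his-16. The chromosome V array of 14 genes, which includes his-17, his-19 and his-20, lies in the second longest stretch without a pooled summit, 99.7 kb, of which 86.9% is repeated. The corresponding stretch was 103 kb in replicate 1 and 98.5 kb in replicate 2, and the median distance between pooled summits was 2.15 kb. On chromosome IV, 12 genes spread over 83.4 kb had 0 summits within 300 bp of a 5′ end, although 20 pooled summits lay in that span, and a group of 6 genes over 5.3 kb had 0 pooled summits anywhere in it. The stretch without a pooled summit around that group of 6 was 15.5 kb, of which 31.7% is repeated. The H4 gene his-5 likewise had no pooled summit within 1000 bp, with 60.9% of its window repeated. It lies in a stretch of 12.3 kb with no pooled summit, of which 7.88% is repeated.

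**Figure D4:**
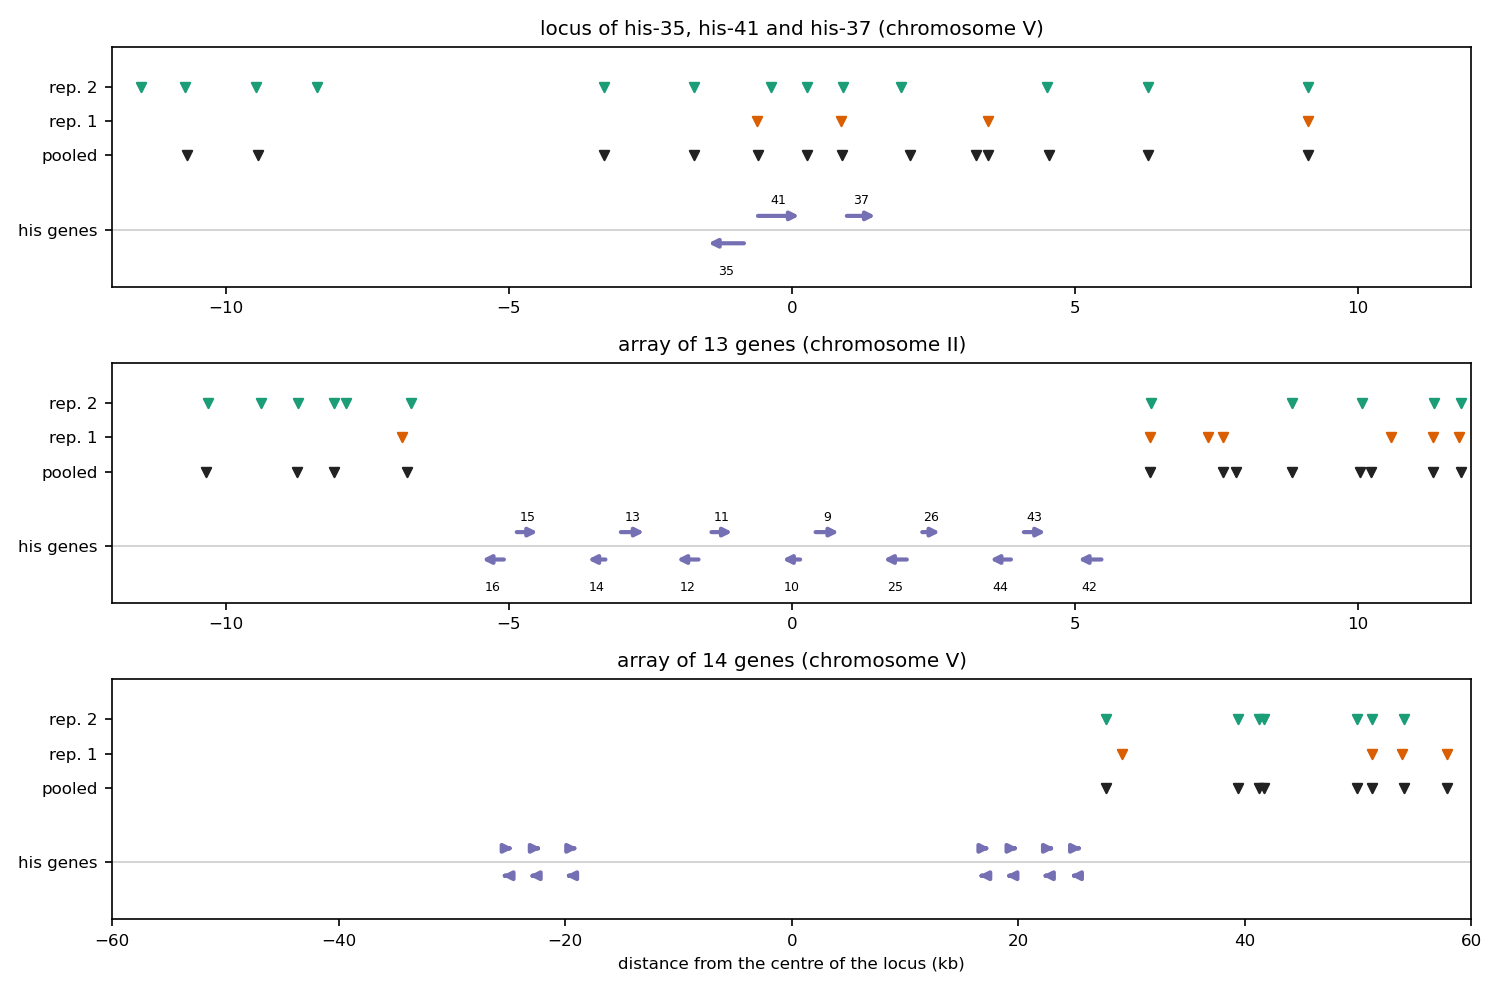
Histone genes (arrows pointing along the strand) and summits of the pooled list and each replicate (triangles) at 3 loci, by distance from the centre of the locus in kb. Summits stand over and between the genes at the locus of his-35, his-41 and his-37, and none stands between the first and last gene of the array of 13 genes or of the array of 14 genes.

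Some genes with little or moderate repeated sequence had no summit. Of the 27 genes at most 50% repeated, 12 had no pooled summit within 300 bp, among them his-31, his-32, his-59 and his-60, whose windows were 15.1% to 20.7% repeated and had no pooled summit within 1000 bp.

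The histone genes form 31 divergent pairs with 5′ ends 228 to 369 bp apart. A summit lay between the 5′ ends of 0 pairs in the IDR list, 4 in the pooled list (12.9%), 2 in replicate 1 and 4 in replicate 2. The 1745 divergent protein-coding pairs had a summit between them in 2.98%, 32.1%, 19.9% and 27.4% of cases in the same lists, and their spacing differed, with a median of 259 bp for histone pairs and 476 bp for protein-coding pairs. Repeated sequence differed too. In 23 histone pairs a gene had over 50% repeated sequence, and 0 of these had a summit between the 5′ ends in any list, while 5.1% of the 98 protein-coding pairs of this kind had a pooled one. Of the 8 histone pairs at most 50% repeated, 4 had a pooled summit between them (50%), against 33.8% of the 1647 protein-coding pairs under the same limit. The pair his-35 and his-41 was not among those 4, because its pooled summit stood 2 bp inside his-41. The part of spacing and of repeated sequence in these shares was not tested.

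The 300 bases from 250 before to 50 after each 5′ end were searched on both strands for 6 listed words. TATAAA, the core of the TATA box, was found in 47 histone promoters (65.3%) and in 37.8% of other protein-coding promoters. CCAAT was found in 39 (54.2%) and in 45.5% of the others. ATTTGCAT, GCGGAACC, GGCCGACA and CTGTTTCA were found in 0 of 72 histone promoters, and in 2.87%, 0.352%, 0.402% and 2.33% of other protein-coding promoters. Paired genes share part of their window, so the histone counts are not independent.

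The word GTGTCCC was picked after the promoters had been read and after all words of 7 to 11 bases had been counted over the 51 distinct upstream sequences, so its frequency there is a description only. It was the third most frequent word of 7 bases, behind CACCGCA and CTCCGCC. It occurred in 51 of 72 histone promoters, in 30 of 51 distinct ones, and in 1.26% of other protein-coding promoters. The longest run common to the upstream sequences of his-37 and his-24 contains it and is 20 bases long. That run ends 1 bp before the pooled summit of his-37 and starts 1 bp after that of his-24. Of the 11 pooled summits, 6 had a GTGTCCC within 300 bp, at 6 to 116 bp. GTGTCCC was held by 9 of the 15 genes that had a pooled summit and by 42 of the 57 that had none. Of those 57 genes, 45 lie in mostly repeated sequence, where a lack of reads and a lack of binding cannot be told apart. With these 45 left out, the word was held by 9 of the 15 genes with a summit and by 5 of the 12 without. The order of the shares was thus the opposite, on few genes and without a test. Among the 250 other protein-coding promoters that hold it, 70 (28%) had a pooled summit, close to the background of 23.4%. Of the other words picked from these promoters, TGTGTCCC was in 43 histone promoters (59.7%) and 0.407% of the others, of which 28.4% had a pooled summit, and TCCCCGCA was in 32 histone promoters (44.4%) and 0.317% of the others, of which 30.2% had a pooled summit.

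Genes outside the his- names were examined as a second list. Of 11 other histone genes, which encode linker histones of the hil family and the variants HTZ-1, HCP-3 and CPAR-1, 0 had an IDR summit within 300 bp, 4 had a pooled summit, 2 had one in replicate 1 and 5 in replicate 2. The background shares of protein-coding genes in these lists were 0.661%, 23.4%, 10.6% and 22.5%. The highest pooled signals were 9.366 at hil-7, 6.676 at hil-2 and 6.654 at htz-1, the gene of the worm H2A.Z. The 5′ end of the non-coding RNA gene C01B10.45 lies within 300 bp of the hil-7 summit, and that of mir-8201 within 300 bp of the hil-2 summit. Of 12 genes for histone mRNA processing and deposition, 1 had an IDR summit, 6 a pooled one, 4 one in replicate 1 and 5 one in replicate 2, beside the same background shares. That 1 gene was lin-53, a histone-binding chaperone subunit, with a signal of 38.62 at position -251 and rank 143 in the pooled list. Replicate 1 had signal 12.65 and replicate 2 had 27.58 there, and the 5′ end of nra-2 lies within 300 bp of the same summit. The gene cdl-1, which encodes the protein that binds the stem-loop of histone mRNA, had a pooled signal of 5.503 at rank 11600.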

How the data were processed

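The authors' deposited narrowPeak lists give, by the narrowPeak layout, a signal value, a −log10 q-value and a summit position for each peak. They were made against the ce11 build, per the labels. No header or label names the aligner, peak caller, IDR threshold, signal scale or read length. The deposited signal was used to rank peaks within a list, and the authors' −log10 (q-value) was used in no count or rank. Depth is unknown, because the lists hold no read counts.

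Genes were taken from Ensembl release 115 (WBcel235, the same chromosomes as ce11) and named by RefSeq through WormBase identifiers, since 36 of the 72 share an Ensembl name. Summits within 300 bp of the 5′ end were counted in each list, with exact binomial (Clopper-Pearson) 95% intervals that cover the counting of genes only. Histone members and lists were chosen with earlier results of these data known. The genes named by rule are those with an IDR summit or among the 381 strongest of a replicate, the 3 of highest pooled signal in each class, and the first 3 of each class, in number order, without a pooled summit within 1000 bp; other genes were named after their values were seen. Arrays are 5′ ends chained within 100 kb, a distance set after the data were seen. Repeated words of 24, 32 and 50 bases were counted over the genome. Python 3.11.15, numpy 2.4.6, pandas 2.3.3, scipy 1.17.1 and matplotlib 3.10.9 were used, and counting was tested on simulated peaks.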

Additional observations from a re-analysis of the deposited data

How the results depend on the processing

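Windows of 150 and 1000 bp, stricter and shorter lists, each replicate alone, peak overlap with the gene body and other chaining distances were tried. With a 1000 bp window the counts moved to 2 genes in the IDR list, 24 in the pooled list, 11 in replicate 1, 23 in replicate 2, 9 genes in both replicates, and 2 and 18 clusters in the IDR and pooled lists. The median rank moved to 9242.5 and the median position turned to 52.5 bp downstream. A 150 bp window left 9 genes in the pooled list (12.5%, background 12.7%), 5 in replicate 2 (6.94%, background 11.8%) and 1 gene in both replicates. For genes in both replicates no background was counted at 150 or 1000 bp. With each replicate alone, the IDR count ranged from 1 to 3 genes and 1 to 2 clusters, the pooled count from 6 to 12, the median rank from 1240 in replicate 1 to 8292 in the full replicate 2 list, a setting added after the data were seen, and the median position from -82 to -57. With the replicate 2 list cut to the length of replicate 1 the median rank was 4280. Within 300 bp, cutting the pooled and replicate 2 lists in this way gave 12 and 8 genes. It turned the histone share from under to over that of protein-coding genes, at 16.7% against 11.2% and 11.1% against 10.1%. Within 1000 bp the share in the cut lists stayed under, at 20.8% against 24% and 22.2% against 23.5%. Limiting repeated sequence to 10%, an alternative added after the data were seen, left 8 genes with a summit of 10. The pooled share of protein-coding genes under 10% repeated was 24.9%. Where 45 genes lie in repeated sequence, the lists cannot show whether binding is absent. No paired analysis was possible because the 2 replicates form 1 group.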
